A study of Homo sapiens with 6 samples.

Results

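Genes for microtubules, centrosomes and mitosis were followed through the table of alternative polyadenylation (APA) that was made from HL-60 cells with and without extra CFIm25. The table lists, for each gene, a proximal poly(A) site (pPAS) and a distal one (dPAS), which are the ends of a short and a long mRNA isoform. By the paper's methods, the pair was chosen as the most used PASs of the last exon's 3’ UTR. A gene can thus have PASs outside the pair. Members were all rows whose symbol starts with the name of a kinesin, centrosomal, tubulin, centromere, dynein, dynactin, augmin, plus-end, spindle, anaphase-promoting complex, cohesin, condensin or cyclin family, without CDC42 and its effectors, the CDC25 genes, CCNT1 and CCNT2. This gave 43 of the 2723 genes in the table. The names brought in 4 genes with other roles, namely CKAP4, CDC37L1, CDC73 and CCNL2. CENPBD1P, described as a pseudogene, was placed with the kinetochore genes by its name alone and is not counted among these 4.

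HL-60 is a human promyelocytic leukemia line that turns into macrophage-like cells under phorbol-12-myristate-13-acetate (PMA). OE-CFIm25 cells carried a lentiviral vector with the CFIm25 coding sequence under the EF-1a promoter, and OE-control cells carried the same vector with no insert. Both groups were selected with puromycin, took 3 nM PMA for 6 h and had 3 samples each, and their RNA was sequenced from the poly(A) tail inwards with QuantSeq FWD. The table holds positions that are common to both groups, so the values below describe the PAS pairs themselves and not a difference between OE-CFIm25 and OE-control.

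A PAS is usually preceded by the poly(A) signal AAUAAA or AUUAAA, to which the cleavage machinery binds. CFIm25 is the subunit of cleavage factor I that recognises UGUA, and it is known for steering the choice between proximal and distal PASs. Microtubules grow from γ-tubulin at the centrosome, kinesins and dynein move along them, and in mitosis they attach to kinetochores while the anaphase-promoting complex and cohesin time the separation of chromatids. Monocytic cells slow this cycle as they become macrophages.

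Sequences near selected PASs were read from GRCh37 in the sense of the mRNA, 5′ to 3′. UGUA, written TGTA in the genome, is in capitals, and each line shows the 30 nt with the most copies near the PASs where the pair was most unequal. These are the dPAS of KIF3B at chr20:30922776-30922805 (+), the dPAS of CEP120 at chr5:122680610-122680639 (-), the pPAS of TUBE1 at chr6:112392042-112392071 (-), the pPAS of CENPC at chr4:68338238-68338267 (-) and the pPAS of CCNL2 at chr1:1322161-1322190 (-).
KIF3B dPAS: TGTAataaaaatcaatcagatttatTGTAc
CEP120 dPAS: TGTAaagctcttttggctatTGTAacttaa
TUBE1 pPAS: TGTAcacttaacaTGTAttTGTAttaaact
CENPC pPAS: TGTAtagttggaatatttgtcttTGTAatt
CCNL2 pPAS: TGTActtaTGTAcatattttgcagtgtttc

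The pPAS and dPAS of a member lay a median of 999 nt apart, against 760 nt over all 2723 genes in the table. The quartiles of the members were 234 and 1692.5 nt, and those of all genes were 256 and 1756.5 nt. The members ran between 30 and 3829 nt. A spacing of 2500 nt or more was found in 9 members (20.9%), against 15.6% of all genes, and one under 100 nt in 6 members (14%), against 10.8%. Averaged on the log2 scale, the spacing was 628 nt in members and 635 nt in all genes, so the higher median of the members does not hold for this average.

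**Figure D1:**
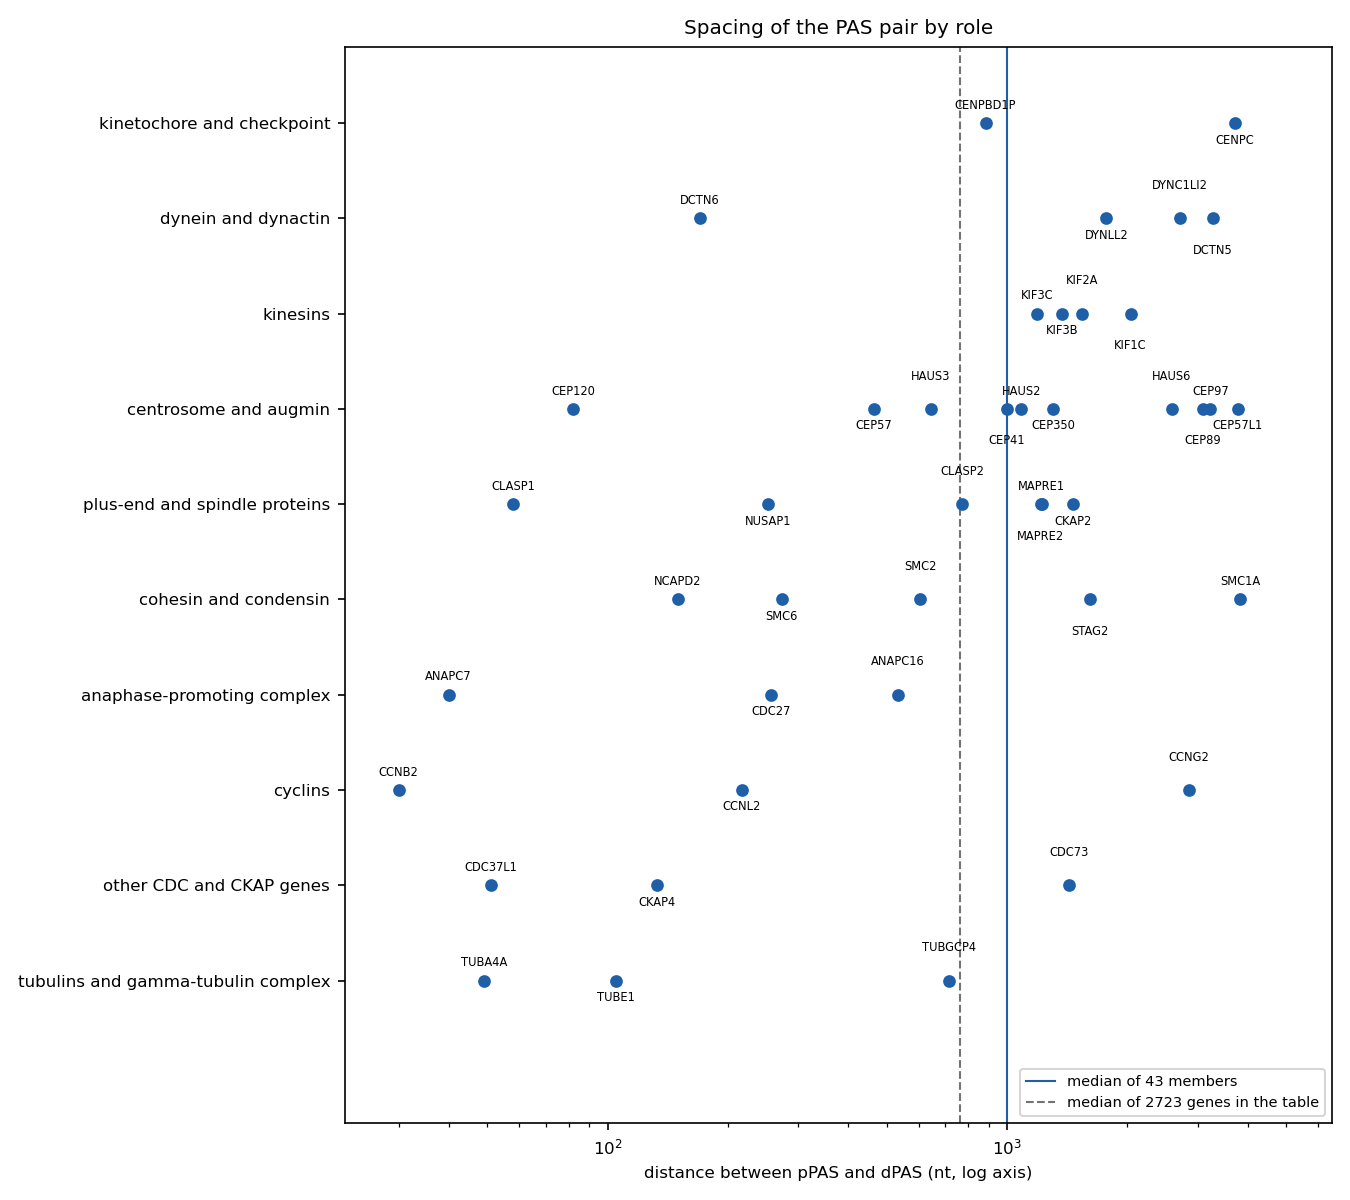
Distance between the pPAS and the dPAS in nt on a log axis, with each point a member and each row a role. The solid line is the median of the 43 members at 999 nt and the dashed line that of all 2723 genes at 760 nt, and the 4 kinesins all lie to the right of both.

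The kinesins, which are motors that walk on microtubules or take them apart, all had PASs more than 1000 nt apart. A spacing of 1000 nt or more was found in 48.8% of all members and 41.9% of all genes. KIF3C lay at 1190 nt, KIF3B at 1375 nt, KIF2A at 1539 nt and KIF1C at 2037 nt. KIF3B and KIF3C are subunits of a transport motor that pairs with KIF3A, KIF1C carries cargo towards plus ends and KIF2A depolymerises microtubules. Of these 4 kinesins, 3 had a pPAS followed by A-rich sequence, against 26.7% of all genes. In KIF1C it was the dPAS that A-rich sequence followed, against 10.2% of all genes. No kinesin was free of such sequence at both PASs, while 66.7% of all genes were.

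Dynein and its partner dynactin move cargo towards minus ends. DCTN5, in the pointed-end complex of dynactin, had PASs 3266 nt apart, while those of DCTN6, in the same complex, lay 170 nt apart. DYNC1LI2, a light intermediate chain, had 2705 nt and DYNLL2, a light chain, 1772 nt. In DYNC1LI2 the pPAS lay 120 nt after the stop codon, so 95.8% of the long 3’ UTR lay between the PASs, and in DYNLL2 this share was 91.2%.

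Tubulins and the γ-tubulin complex had narrower pairs. TUBA4A, an alpha-tubulin, had PASs 49 nt apart in a 3’ UTR of 18 nt to the pPAS and 67 nt to the dPAS, which was the shortest among the members. TUBE1, the epsilon-tubulin of centrioles, had 105 nt, and TUBGCP4, a subunit of the γ-tubulin ring complex, 717 nt.

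Centrosomal and augmin genes were the largest role, with 10 members, and spread over the whole range. CEP120, which is needed for centriole growth, had 82 nt, and CEP57L1, a relative of CEP57, had 3771 nt. CEP97, which caps centrioles together with CP110, had 3223 nt, and CEP89, a protein of the distal appendages, 3085 nt. CEP57, of the pericentriolar material, had 463 nt, CEP41, a ciliary protein, 999 nt, and CEP350, which anchors microtubules at the centrosome, 1305 nt. Augmin seeds new microtubules on the sides of old ones. Its subunits HAUS3, HAUS2 and HAUS6 had 645, 1084 and 2584 nt.

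Plus-end and spindle proteins bind growing microtubule ends or the spindle. The CLASP paralogs, which stabilise plus ends, differed widely, with 58 nt in CLASP1 and 772 nt in CLASP2. The end-binding paralogs MAPRE2 and MAPRE1 were close, with 1212 and 1221 nt. NUSAP1, which bundles spindle microtubules, had 252 nt. CKAP2, a spindle protein, had 1459 nt, and its pPAS lay 22 nt after the stop codon, which left 98.5% of the long 3’ UTR between the PASs.

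CENPC, which links centromeric chromatin to the outer kinetochore, had PASs 3713 nt apart, with the pPAS 127 nt after the stop codon. CENPBD1P, a pseudogene by the description in the table, had 883 nt and was not found by name in the annotation used, so it has no 3’ UTR values. In the anaphase-promoting complex, the ubiquitin ligase that starts anaphase, ANAPC7 had 40 nt, CDC27 256 nt and ANAPC16 532 nt.

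Cohesin holds sister chromatids together, and its ring subunit SMC1A had the widest pair of all members, at 3829 nt, while STAG2, which binds the ring, had 1613 nt. The condensin subunits NCAPD2 and SMC2, which compact chromosomes, had 150 and 606 nt. SMC6, part of a related complex in DNA repair, had 273 nt. CCNB2, a mitotic B-type cyclin, had the closest pair of all members, at 30 nt. The authors matched reads within 24 nt of a PAS, so the match windows of the CCNB2 pair overlap, as do those of ANAPC7. No poly(A) signal was found in the 40 nt up to the CCNB2 pPAS. CCNG2, an atypical cyclin tied to cell cycle arrest, had 2849 nt. The whole stretch between the PASs of CCNB2 is shown at chr15:59417214-59417243 (+), with the poly(A) signal of the dPAS in capitals.
CCNB2: aaaAATAAAgcgattggtttttcttaaggt

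The genes that the names brought in had 51 nt in CDC37L1, an HSP90 cochaperone, 133 nt in CKAP4, a membrane protein of the endoplasmic reticulum, 217 nt in CCNL2, a cyclin of transcription and splicing, and 1425 nt in CDC73, a subunit of the PAF1 complex. Of 83 further genes of the same pathways on a list of mitotic and microtubule genes, 16 were in the table, with a median spacing of 760 nt. The widest of these were PAFAH1B1, a dynein regulator, at 3707 nt and TACC1, a spindle protein, at 2639 nt, and the closest was KATNA1, a microtubule-severing enzyme, at 92 nt. AURKA, the kinase that matures spindle poles, had 276 nt.

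For 42 of the 43 members, and for 2694 of all genes, the annotation put the pair of PASs into the last exon downstream of the stop codon. The authors chose the pairs from this region, so the placement is no finding about the members. The 3’ UTR ran a median of 766 nt to the pPAS in members, against 582 nt in all genes, and 2023 nt to the dPAS, against 1753 nt. The share of the long 3’ UTR that lies between the PASs was a median of 48.5% in members and 54.7% in all genes. The longest was DCTN5 with 2716 nt to the pPAS and 5982 nt to the dPAS, and KIF2A had the longest short form with 3915 nt. After the DCTN5 dPAS 17 of 20 nt were A, and the nearest annotated transcript end of the gene lay 3254 nt away. After the KIF2A pPAS 18 of 20 nt were A. No poly(A) signal was found in the 40 nt up to either of these PASs. CCNB2 gave 1348 nt to the pPAS on the transcript that ends nearest its dPAS and 137 nt on its longest coding transcript.

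**Figure D2:**
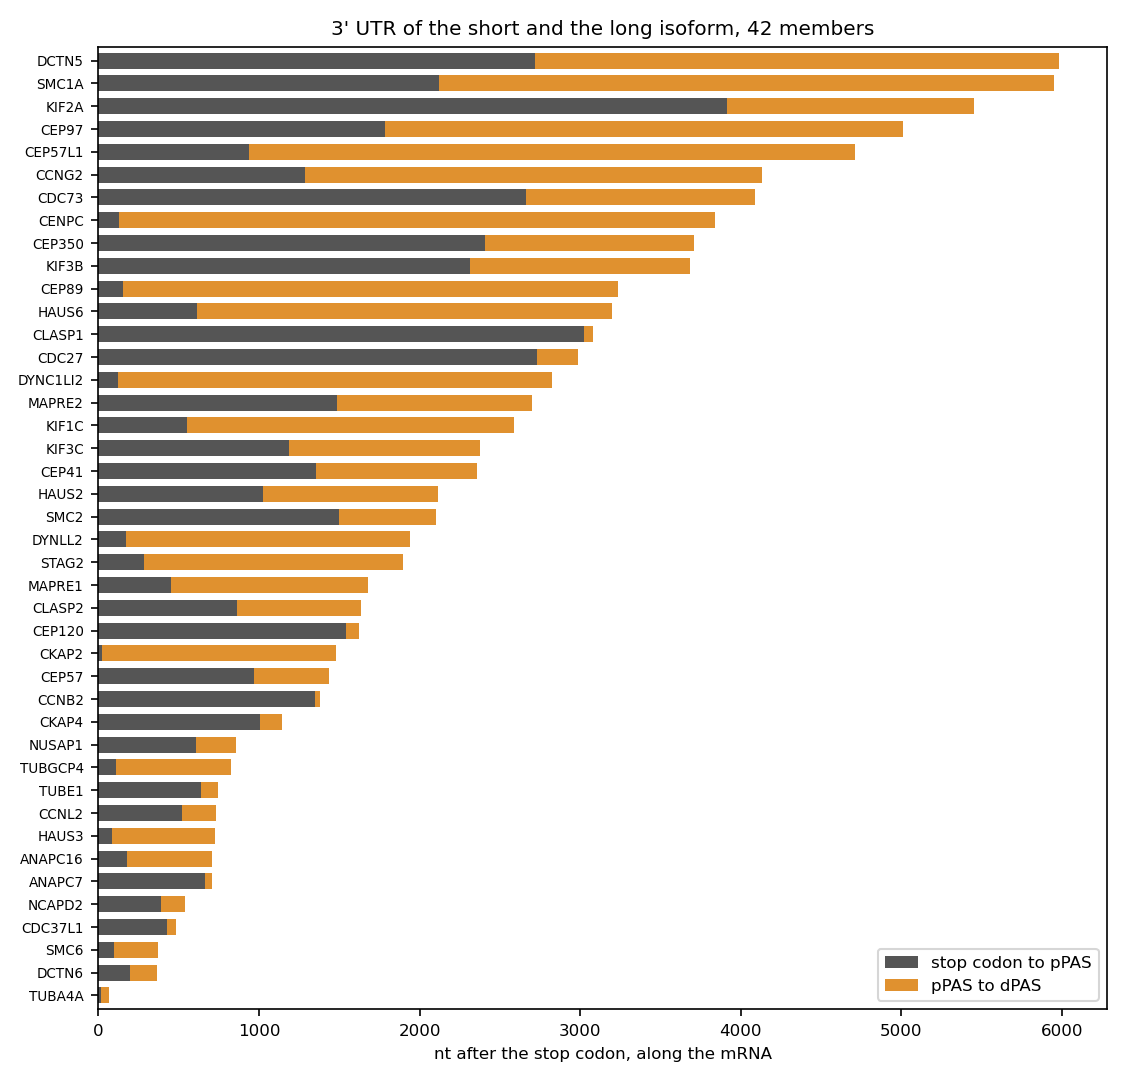
Length of the 3’ UTR in nt after the stop codon for 42 members, sorted by the dPAS, with the dark bar the part up to the pPAS and the orange bar the part between the PASs. DCTN5 and SMC1A reach farthest, with dPASs 5982 and 5952 nt after the stop codon, and in CKAP2 and CENPC nearly all of the 3’ UTR is orange.

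An annotated transcript end lay within 24 nt of the pPAS in 15 of 42 members (35.7%), against 39.8% of all genes, and of the dPAS in 30 of 42 (71.4%), against 73.8%. Exons of a protein-coding gene on the opposite strand, coding or not, overlapped the stretch in KIF2A (DIMT1), TUBA4A (STK16) and TUBGCP4 (TP53BP1).

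A window of 40 nt that ends at the PAS was searched for the poly(A) signal. At the pPAS it was found in 26 members (60.5%), against 55.5% of all genes, and at the dPAS in 37 members (86.0%), against 80.3%. This order turned round when 1-base variants of the signal were counted too. The shares were then 69.8% of members against 72.1% of all genes at the pPAS, and 86.0% against 90.3% at the dPAS. Without the variants, both PASs had the signal in 20 members (46.5%), against 45.5% of all genes. The dPAS alone had it in 17 (39.5%), against 34.9%, and the pPAS alone in 6 (14%), against 10%. No member lacked it at both, while 9.66% of all genes did. In a control window from 139 to 100 nt upstream, 6.98% of the members' pPASs and 4.65% of their dPASs had it, against 3.45% and 6.83% in all genes. Members thus held the signal near the PAS more often than farther upstream, at a median distance of 21.5 nt from the pPAS and 20 nt from the dPAS.

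The members without a signal at the pPAS were mostly those with A-rich sequence after it. A-rich means here that 12 or more of the next 20 nt were A, or that 6 A followed each other among them. Oligo(dT) can anneal to such a stretch inside a transcript, and this was not tested for these sites. Of the members, 14 (32.6%) had an A-rich pPAS, against 26.7% of all genes, and 5 (11.6%) an A-rich dPAS, against 10.2%. By the rule of 12 A or a run of 6, no member had both, and 24 (55.8%) had neither, against 66.7% of all genes. Of all 2723 genes, 728 had an A-rich pPAS, 279 an A-rich dPAS and 1816 neither, so having both was uncommon there too.

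Among the 14 members with an A-rich pPAS, 2 (14.3%) had a signal there, namely CDC27 and CLASP2, against 12.4% of the A-rich pPASs of all genes. Of the 29 others, 24 (82.8%) had one, against 71.2% of all genes. The A content was 19 of 20 nt in CEP41, KIF3B, CENPBD1P and CKAP4, 18 in STAG2, KIF2A and CLASP1, 17 in HAUS2 and CEP350, 16 in DYNC1LI2, 13 in NCAPD2 and 11 in KIF3C and CLASP2. CDC27 had 8 A, with a run of 6. All 14 had a signal at the dPAS, a share that was not counted over all genes. For those without one at the pPAS, this follows from no member lacking the signal at both PASs.

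The A-rich dPASs were those of KIF1C and TUBGCP4 (19 A each), CEP57L1 and MAPRE2 (18 A each) and DCTN5 (17 A). None of these 5 had a signal at the dPAS, against 32.3% of the A-rich dPASs of all genes. All 5 had one at the pPAS, which again follows from no member lacking the signal at both PASs. None of them had an annotated transcript end within 24 nt of the dPAS, against 36.6% of the A-rich dPASs in all genes. At the A-rich pPASs, 5 of the 13 annotated members (38.5%) had such an end, namely CEP41, HAUS2, STAG2, DYNC1LI2 and CLASP2, against 36.5% of the A-rich pPASs in all genes.

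**Figure D3:**
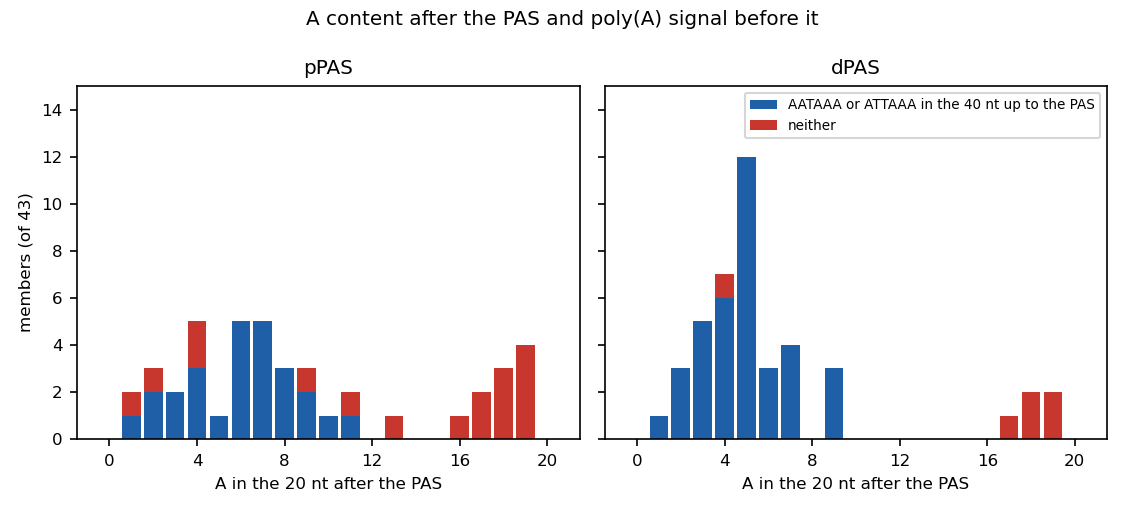
Number of A in the 20 nt after the pPAS (left) and after the dPAS (right), with bar height the number of the 43 members and colour showing whether a poly(A) signal (AATAAA or ATTAAA) was found within 40 nt upstream. From 12 A upwards every bar is red, at both PASs.

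Copies of UGUA were counted over 100 nt upstream of each PAS. Members had a mean of 1.12 at the pPAS and 1.05 at the dPAS, against 0.743 and 0.943 in all genes. The mean difference, dPAS minus pPAS, was -0.0698 in members (SD 1.62 over the members), against 0.20 in all genes (SD 1.33 over the genes). More copies stood at the dPAS in 17 members (39.5%), against 36.6% of all genes, and more at the pPAS in 17 members (39.5%), against 25.8%. The members' mean changed sign, to 0.0769, without the 4 genes of other roles, so no direction is read from it.

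The members with the most surplus at the dPAS were KIF3B, with 4 against 0 at the pPAS, and CEP120, with 3 against 0. Then came CEP350 and SMC6 with 3 against 1, and HAUS2 and STAG2 with 2 against 0. At the other end were CENPC with 1 at the dPAS against 4 at the pPAS, and TUBE1 and CCNL2 with 0 against 3. CKAP4, CLASP1, NUSAP1, CKAP2, DCTN6 and DYNLL2 had 2 fewer at the dPAS. The PASs of CLASP1 lie 58 nt apart and those of CEP120 82 nt, so the windows of each pair overlap.

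**Figure D4:**
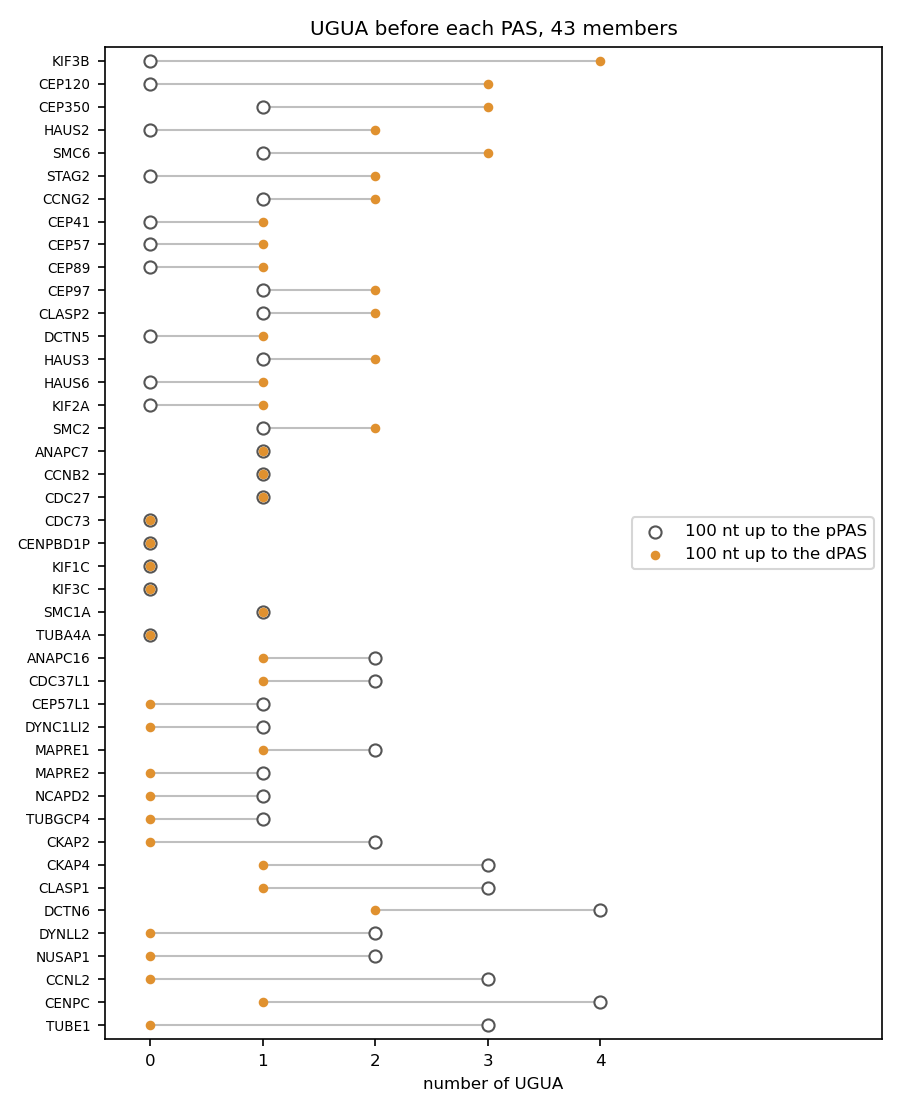
Number of UGUA over 100 nt upstream of each PAS for the 43 members, sorted by the difference, with the open circle the pPAS and the filled circle the dPAS. KIF3B and CEP120 are at the top and TUBE1 and CENPC at the bottom, and a filled circle inside an open one means equal counts.

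Of the 14 members with an A-rich pPAS, 7 had more UGUA at the dPAS and 4 at the pPAS, against 47.9% and 16.5% of the A-rich genes of the whole table. Of the 29 other members, 10 had more at the dPAS and 13 at the pPAS, against 32.4% and 29.2% of the corresponding genes of the whole table.

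The stretch between the PASs is the part of the 3’ UTR that only the long isoform has. Both ATTTA, a core of AU-rich elements, and TGTANATA, the kind of site that Pumilio proteins bind, were counted there. TGTANATA contains TGTA, so these counts overlap with those of UGUA. ATTTA stood in 32 members (74.4%), against 68.7% of all genes, at 2.53 per 1000 nt against 2.34. The most were in CEP97 (14), HAUS6 (13), CENPC (12), CDC73 (11) and CEP57L1 (9). TGTANATA stood in 9 members (20.9%), against 21.3%, at 0.335 per 1000 nt against 0.237.

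CEP97 and CEP57L1 had 4 TGTANATA each, CEP350 had 3, SMC6 had 2 and CEP41, STAG2, KIF2A, CENPC and CLASP2 had 1 each. These are shown, with TGTANATA in capitals, for CEP97 at chr3:101487806-101487835 (+) and CEP350 at chr1:180083795-180083824 (+).
CEP97: atataatcgttTGTATATATGTAAATAact
CEP350: tactgtgtgcgTGTAAATAgcctggtcatc

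Seed matches of 4 miRNAs, 7 nt long and complementary to bases 2 to 8 of the miRNA, were also counted. For hsa-miR-16-5p, which is known for holding back cell cycle genes, they stood in 8 members (18.6%), against 15.9% of all genes, for hsa-miR-223-3p, a myeloid miRNA, in 4 (9.30%), against 6.24%, for hsa-let-7a-5p in 3 (6.98%), against 6.61%, and for hsa-miR-155-5p in 2 (4.65%), against 8.01%. CEP89 held 4 of the matches to hsa-miR-16-5p, a pair of them overlapping. The mature sequence is from RefSeq (GRCh38.p14) with its seed in capitals, and the CEP89 match at chr19:33369550-33369579 (-) in GRCh37 has the match in capitals.
hsa-miR-16-5p: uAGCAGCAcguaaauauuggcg
CEP89: ttttaataacgTGCTGCTgaaatctgtttt
A match to the seed is a string match and does not show that the miRNA binds. All of these counts are of sequence in GRCh37 and were not measured in HL-60 cells.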

How the data were processed

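The authors made QuantSeq FWD libraries from 3 OE-CFIm25 and 3 OE-control samples of HL-60 cells. Read 2 was aligned to hg19 by STAR 2.7.7a, and the authors counted reads whose last aligned base lay within 24 nt of a PAS of PolyA_DB. The deposited positions of the pPAS and dPAS were used. The deposited columns of the authors' comparison (a log2 relative expression difference, an adjusted p-value and a call) hold their findings and were not used, and 6 numbered libraries in the read statistics match no sample label, so depth by sample is not given here. A repeated row was dropped. Sequence was read from GRCh37, the build of hg19, and annotated with GENCODE release 44 mapped to it. 3’ UTR lengths used coding transcripts only, a restriction set after odd lengths from other transcripts were seen. The annotated ends, opposite-strand genes and miRNA seeds were also added after the data were seen. Members and lists were chosen with earlier results of these data known. All members are named with their spacing, and the extremes of each feature in more depth. No test was run, and the sequence at A-rich PASs is not reported here. Functions were tested on simulated sequence. Python 3.11.15, numpy 2.4.6, pandas 2.3.3, scipy 1.17.1 and matplotlib 3.10.9 were used.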

Additional observations from a re-analysis of the deposited data

How the results depend on the processing

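A share was taken to move where it left its 95% Wilson interval, and a median or mean where it changed by over 1.5 times or in sign, a rule set after the data were seen. Of 32 values under alternatives, 26 did not move and 6 did. The interval served only as a yardstick, since genes are not replicates, and over 43 members it is wide. Thus the A-rich pPAS share, 32.6% by the main rule and 23.3% with at least 14 A in 20 nt, counted as not moved. So did the pPAS signal share, 60.5% with both signals and 48.8% with AATAAA alone. The spacing averaged on the log2 scale was 628 nt, against a median of 999 nt. With AATAAA as the only signal, 72.1% of the dPASs had one, against 86.0% with both signals. Among the members' stretches of at least 300 nt, 96.6% held ATTTA, against 74.4% of the members' stretches of any length. Over all genes these shares were 82.7% and 68.7%. The mean difference of UGUA, dPAS minus pPAS, was -0.0698 in the 100 nt window, -0.0233 in 60 nt and -0.116 in 150 nt, and changed sign to 0.0769 without the 4 genes of other roles. The cause of these shifts was not tested. No paired analysis was possible because the positions are common to all samples, with no value per sample, and no replicate could be left out for the same reason. Sites listed in the table depend on PolyA_DB, and no depth is known for them.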
